A study of Mus musculus with 15 samples.

Results

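The GDNF family comprises secreted ligands and the receptors through which they signal. Glial cell line-derived neurotrophic factor (Gdnf), neurturin (Nrtn) and artemin (Artn) bind to co-receptors of the GFRα family (Gfra1 to Gfra4), which are anchored in the outer membrane by a lipid and have no kinase of their own. The ligand and its co-receptor together engage Ret, a transmembrane receptor tyrosine kinase that passes the signal to the ERK, PI3 kinase and phospholipase C pathways. GDNF is best known as a ligand of GFRα1, neurturin of GFRα2 and artemin of GFRα3, and the family is known for its roles in enteric, autonomic and sensory neurons and in the kidney.

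All 8 genes were found by symbol among the 38283 genes of the expression table, and all 8 had a value above 0 in at least 1 sample. The family was chosen by its measured levels in these same samples, namely Gfra3 being high in alpha cells and Gfra1 being near 0 in beta cells. The levels of Gfra1 and Gfra3 are therefore given as a description without a test. Of the remaining 6 genes, 3 (Gfra2, Ret and Nrtn) were tested, and the other 3 (Gfra4, Gdnf and Artn) had no mean above 1 FPKM in any cell type and were not.

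RNA was sequenced from 15 samples of islet cells sorted from C57BL/6 mice. Alpha cells (n = 5) were the Venus-positive cells of Glu-Venus mice, in which the proglucagon promoter drives a fluorescent protein. Beta cells (n = 4) were taken from the Venus-negative cells of the same line by high scatter and autofluorescence. Delta cells (n = 6) were the EYFP-positive cells of Sst-CreXROSA26EYFP/EYFP mice, in which Cre under the somatostatin promoter switches on the fluorophore. No treatment is stated for any group, and the ages of the mice are not given in the sources used here. Each sample was sorted from the pooled islets of several mice, so the spread reported is between pools. Since delta cells also came from another mouse line, effects of the line and of the cell type cannot be told apart in comparisons with them.

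Expression was given as FPKM, a read count scaled to the length of the transcript and to the mapped reads of the sample, which allows levels of different genes to be compared. The genes with a value above 0 numbered 14761 to 17122 in alpha, 15286 to 17752 in beta and 16342 to 18559 in delta samples. Read totals could be estimated from the FPKM in 6 samples, at 7.39 M to 30.4 M reads, and the depth of the other 9 is unknown. The FPKM of 85 ribosomal protein genes added up to 65611 to 140979 in 6 samples (alpha 1 to 3, beta 2, and delta 1 and 2) and 7919 to 38775 in the other 9, and these sets are given separately where this bears on a gene. Glucagon, insulin 2 and somatostatin were each highest, without overlap, in the cell type labelled for them. Gcg was at 184426 to 344947 FPKM in alpha samples, Ins2 at 91248 to 638871 in beta samples, and Sst at 101492 to 266276 in delta samples.

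The co-receptor genes are related in sequence, so their coding sequences in GENCODE M21 (GRCm38) were compared without gaps over windows of 50 bases, the length of a read. Gfra1 and Gfra2 were the closest pair, with at least 5 mismatches in every window and a longest identical run of 28 bases. Over all 6 pairs the fewest mismatches ranged from 5 to 17. None of the 27220 different 50-base words in the 29 annotated transcripts of the 8 genes occurred in more than 1 of them. The closest windows of Gfra1 and Gfra2 are shown because they are where a read of one gene most resembles the other. That of Gfra1 lies at chr19:58300505-58300554 on the minus strand, in exon 6 of its transcript with the longest coding sequence, at coding bases 458 to 507. That of Gfra2 lies at chr14:70925757-70925806 on the plus strand, in exon 4, at coding bases 479 to 528. The bases that differ are in capitals.
Gfra1: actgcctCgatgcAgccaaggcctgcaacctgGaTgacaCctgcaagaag
Gfra2: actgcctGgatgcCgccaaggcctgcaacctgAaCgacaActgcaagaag

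Gfra1, the co-receptor of GDNF, was present in alpha and delta cells and close to 0 in beta cells. The gene lies at chr19:58235604-58455909 on the minus strand and has 9 annotated transcripts. In the 5 alpha samples Gfra1 was at 6.82, 10.8, 3.15, 7.35 and 11.6 FPKM. In the 4 beta samples it was at 0.0200, 0, 0.0530 and 0.198 FPKM. In the 6 delta samples it ranged from 5.16 to 17.2 FPKM with a median of 12.3. Every alpha and every delta sample was thus above every beta sample, while alpha and delta samples overlapped. Means were 7.93 ± 3.38 FPKM in alpha (SD, n = 5), 0.0678 ± 0.0896 in beta (SD, n = 4) and 12.4 ± 4.40 in delta cells (SD, n = 6). The alpha mean was 117-fold and the delta mean 183-fold that of beta cells, both ratios being set by a beta mean close to 0. Without beta 4, which alone was above 0.0530 FPKM, they were 326-fold and 511-fold. The delta mean was 1.57-fold the alpha mean.

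The order delta, alpha, beta was the same in both sets of samples. In those with the higher ribosomal protein sum, mean Gfra1 was 6.91 FPKM in alpha samples, 0 in the single beta sample and 10.9 in delta samples. In those with the lower sum it was 9.46, 0.0904 and 13.2 FPKM. The exons of Gfra1 share 416 bases with the antisense gene Gm16277, and the kit is not stated to preserve strand. Gm16277 was at no more than 0.272 FPKM in any sample, and the part of antisense reads in the Gfra1 values was not tested. Ppy, the hormone gene of PP cells, was also lowest in beta samples, although unlike Gfra1 its mean was higher in alpha than in delta samples. It was at 17728 to 41392 FPKM in alpha samples, 16.9 to 98.1 in beta samples and 10857 to 48600 in delta samples. Duct cell markers, 4 genes, were also lower in beta samples on the whole, their sum being 15.4 to 159.9 FPKM in alpha, 0.813 to 18.3 in beta and 8.83 to 85.5 in delta samples, with some overlap. The part of PP and duct cells in the Gfra1 values was not tested. In sorted samples of this kind, a smaller number of expressing cells and less RNA per cell cannot be told apart.

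Gfra2, the co-receptor of neurturin, was the only co-receptor gene with its highest values in delta cells and values near 0 in both other cell types. It lies at chr14:70890120-70979838 on the plus strand. The alpha samples were at 0.0277, 0, 0.0331, 0.0675 and 0.0585 FPKM. The beta samples were at 0.0758, 0.0328, 0.0444 and 0.0464 FPKM. The delta samples ranged from 0.360 to 4.81 FPKM with a median of 1.48, and every one was above every alpha and beta sample. The spread within delta cells was wide, with delta 2 and delta 5 at 4.01 and 4.81 FPKM and delta 1 at 0.360.

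Differences were tested with limma on log2(FPKM + 1), a scale that understates the fold change of low genes, with Benjamini-Hochberg adjustment over all 14405 genes tested. In this fit the Gfra2 level of delta cells exceeded that of alpha cells by 1.48 (SE 0.330, adjusted p = 0.00969) and that of beta cells by 1.46 (SE 0.352, adjusted p = 0.0101). By comparison, 5.33% of all genes were called higher against alpha cells and 11.7% against beta cells. Gfra2 passed the filter on low values only through its delta mean of 2.26 ± 1.74 FPKM (SD, n = 6), so the filter itself favoured a higher level in delta cells. In the fit of the 23792 genes with a value above 0 in any sample, which does not use that filter, the limma adjusted p was 0.00761 against alpha and 0.00875 against beta cells. Both calls were lost under quantile normalization, with differences of 1.10 (limma adjusted p = 0.0623) and 1.04 (limma adjusted p = 0.0540). Over all alternatives the adjusted p ranged from 0.000846 to 0.0623 and from 0.00143 to 0.0540. Beta and alpha cells differed by 0.02 (limma adjusted p = 1).

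The delta mean of Gfra2 was 2.18 FPKM in the samples with the higher and 2.30 FPKM in those with the lower ribosomal protein sum. Schwann cell and neuron markers were examined because the family is well known in nerves. The sum of 6 Schwann cell markers was 0.727 to 6.94 FPKM in alpha, 0.822 to 3.52 in beta and 1.25 to 9.26 in delta samples. Of these markers 4 were at 0 in all alpha samples, 4 in all beta samples and 1 in all delta samples, and Sox10 was at 0 in all alpha and beta samples. The part of Schwann cells in the Gfra2 values was not tested. The 4 autonomic neuron markers found in the table summed to at most 0.350 FPKM in alpha, 0.00926 in beta and 0.111 in delta samples, and Chat and Prph were at 0 in every sample. Acinar cell markers, 4 genes, summed to 0.0651 to 50.1 FPKM in alpha, 0.0283 to 4.22 in beta and 1.46 to 396 in delta samples, and the sum of 4 endothelial markers was 0 to 0.151, 0 to 0.0902 and 0.150 to 0.996 FPKM. The part of acinar and endothelial cells was not tested.

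Gfra3, the co-receptor of artemin, was high in alpha cells. It lies at chr18:34689898-34720387 on the minus strand, with a single annotated transcript. The alpha samples were at 18.3, 18.6, 13.1, 10.7 and 16.2 FPKM. The beta samples were at 0.220, 0.0792, 0 and 0.0818 FPKM, and the delta samples ranged from 0.114 to 0.794 with a median of 0.227. The lowest alpha sample was far above the highest of the other cell types, whereas beta and delta samples overlapped. The highest delta value, in delta 2, stood apart from the next at 0.265. Means were 15.4 ± 3.44 FPKM in alpha (SD, n = 5), 0.0952 ± 0.0913 in beta (SD, n = 4) and 0.295 ± 0.252 in delta cells (SD, n = 6). The alpha mean was 161-fold the beta mean and 52.1-fold the delta mean, ratios that rest on means close to 0. The former was 286-fold without beta 1, and the latter 78.7-fold without delta 2. In alpha cells Gfra3 averaged 16.7 FPKM in the samples with the higher ribosomal protein sum and 13.4 FPKM in those with the lower. Between delta and beta cells the difference in log2(FPKM + 1) was 0.23, and it was -0.03 under quantile normalization. The sum of 5 mesenchymal markers was 0.848 to 3.79 FPKM in alpha samples, against at most 0.00687 in beta and 0.239 in delta samples. Of these markers 1 had a mean above 1 FPKM in alpha samples, and 2 were at 0 in all of them. The part of mesenchymal cells in the Gfra3 values was not tested.

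Gfra4, the co-receptor of persephin, was low throughout. It lies at chr2:131039632-131043088 on the minus strand, and 80 of its exon bases are shared with the microRNA gene Mir6973b. It was at 0.251, 0.992, 0.436, 0 and 0.636 FPKM in alpha samples, and at 0.0433, 0, 0.249 and 0.0714 FPKM in beta samples. The delta samples ranged from 0.145 to 1.34 FPKM with a median of 0.300. The samples of all 3 cell types overlapped, with means of 0.463 in alpha, 0.0909 in beta and 0.585 FPKM in delta cells.

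**Figure D1:**
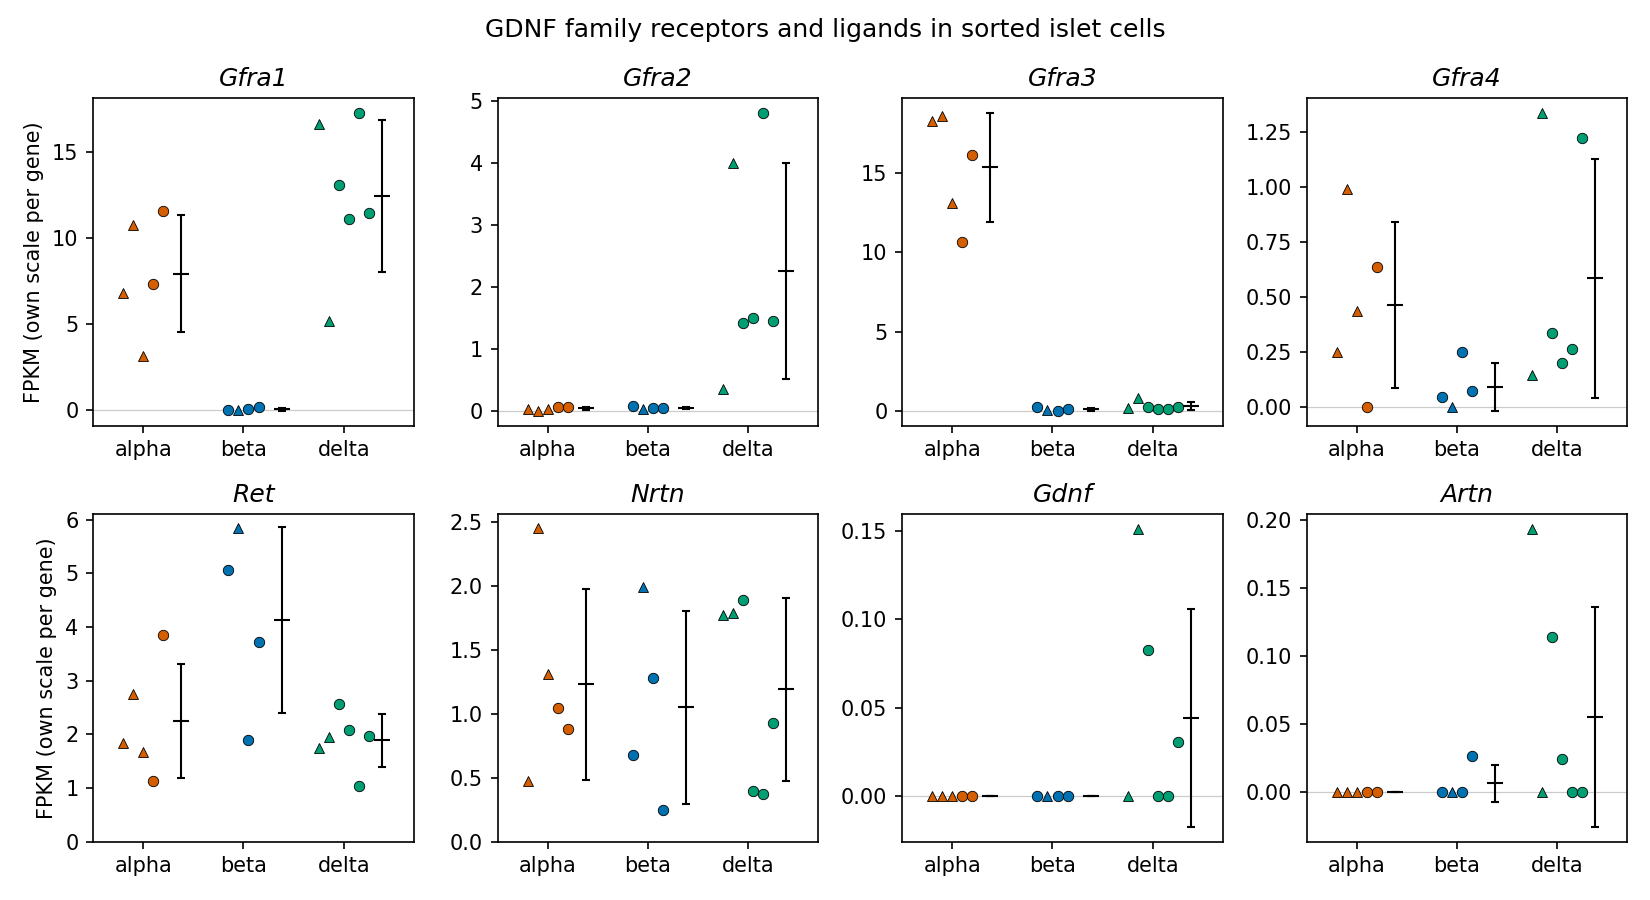
FPKM (vertical axis, own scale for each gene) of the 8 genes in each alpha, beta and delta sample (horizontal axis), where triangles are samples with the higher and circles samples with the lower ribosomal protein sum, and the bar and whiskers beside each group are the mean and SD. Gfra1 is near 0 in beta samples alone, Gfra3 is above 10 FPKM in alpha samples alone, Gfra2 is above 0.3 FPKM in delta samples alone, and Ret, Gfra4 and Nrtn overlap between cell types.

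Ret, the kinase shared by all the co-receptors, was present in every sample of every cell type. It lies at chr6:118151745-118197718 on the minus strand. The alpha samples were at 1.83, 2.75, 1.68, 1.14 and 3.85 FPKM, and the beta samples at 5.06, 5.84, 1.90 and 3.73 FPKM. The delta samples ranged from 1.05 to 2.56 FPKM with a median of 1.96. Of the 4 highest samples in all, 3 were beta samples. However, beta 3 was within the range of the other cell types and beta 4 within that of alpha samples, so that all 3 cell types overlapped.

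The means of Ret were 2.25 ± 1.07 FPKM in alpha (SD, n = 5), 4.13 ± 1.73 in beta (SD, n = 4) and 1.89 ± 0.496 in delta cells (SD, n = 6). None of the differences in Ret passed the limma test. The beta minus alpha difference in log2(FPKM + 1) was 0.65 (SE 0.323, adjusted p = 0.247). The delta minus beta difference was -0.77 (SE 0.310, adjusted p = 0.110), and the delta minus alpha difference was -0.13 (SE 0.291, adjusted p = 0.894). Scaling by median-ratio size factors brought the beta minus alpha difference to 0.85 (limma adjusted p = 0.0422) and the delta minus beta difference to -1.06 (limma adjusted p = 0.00833). The latter was also called under quantile normalization, at -1.26 (limma adjusted p = 0.00205), and without beta replicate 3, at -1.03 (limma adjusted p = 0.0317). Over all alternatives its adjusted p ranged from 0.00205 to 0.223. In the samples with the higher ribosomal protein sum mean Ret was 2.09 FPKM in alpha, 5.84 in the single beta sample and 1.85 in delta cells, and in those with the lower sum it was 2.50, 3.56 and 1.91 FPKM.

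The balance of co-receptors to Ret was lowest in beta cells. The sum of Gfra1 to Gfra4 was 23.8 ± 6.13 FPKM in alpha (SD, n = 5), 0.304 ± 0.130 in beta (SD, n = 4) and 15.6 ± 3.94 in delta cells (SD, n = 6). Relative to Ret, this sum was 7.37 to 15.9 in alpha samples, 0.0192 to 0.182 in beta samples and 5.78 to 21.5 in delta samples. Beta samples were therefore alone in holding more Ret than co-receptor transcript, and no beta sample overlapped the others in this ratio. The make-up of the sum also differed. Gfra3 made up 56.9 to 78.3% of it in alpha samples and 0.636 to 7.02% in delta samples, where Gfra1 made up 45.6 to 96.0% and Gfra2 2.08 to 35.5%. As these sums are led by Gfra1 and Gfra3, they are given as a description without a test.

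**Figure D2:**
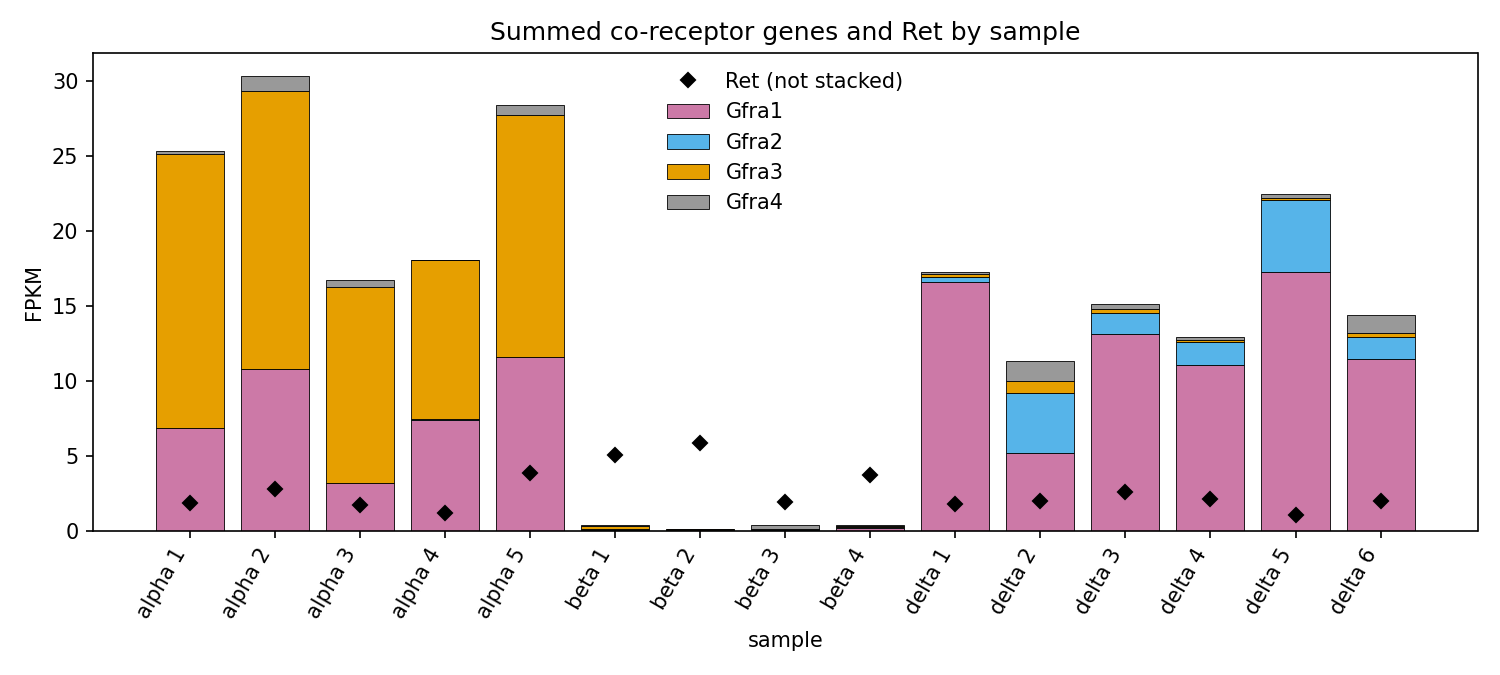
Stacked FPKM of Gfra1, Gfra2, Gfra3 and Gfra4 (vertical axis) in each of the 15 samples (horizontal axis), with the FPKM of Ret as diamonds. The stacks of the alpha samples reach 16.7 to 30.4 FPKM and are mostly Gfra3 with Gfra1. Those of the delta samples reach 11.3 to 22.5 FPKM and are mostly Gfra1, except in delta 2, where Gfra1 is 45.6%. Those of the beta samples stay below Ret.

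Among the ligands, neurturin was the one found in every sample. Nrtn lies at chr17:56751325-56757530 on the minus strand. It was at 0.473, 2.45, 1.31, 1.04 and 0.884 FPKM in alpha samples and at 0.681, 1.99, 1.28 and 0.248 FPKM in beta samples. The delta samples ranged from 0.377 to 1.89 FPKM with a median of 1.35. The cell types overlapped throughout, with means of 1.23 ± 0.746 FPKM in alpha (SD, n = 5), 1.05 ± 0.757 in beta (SD, n = 4) and 1.19 ± 0.714 in delta cells (SD, n = 6). In the limma fit the difference in log2(FPKM + 1) was -0.14 (SE 0.361, adjusted p = 0.868) for beta minus alpha, -0.04 (SE 0.326, adjusted p = 0.982) for delta minus alpha and 0.10 (SE 0.348, adjusted p = 0.883) for delta minus beta. The sign of each of these differences changed under at least 1 alternative.

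Gdnf (chr15:7810846-7837575, plus strand) was listed at 0 in all alpha and all beta samples and in 3 of the 6 delta samples. The other delta samples, delta 2, 3 and 6, were at 0.151, 0.0828 and 0.0308 FPKM. Artn (chr4:117926162-117929763, minus strand) was listed at 0 in all alpha samples. It was at 0.0269 FPKM in beta 4 alone among beta samples, and at 0.193, 0.114 and 0.0245 FPKM in delta 1, 3 and 4. As the depth of most samples is unknown, a value of 0 is not read as absence of the transcript. Persephin (Pspn), the ligand of Gfra4, was at 0 in all alpha and beta samples and at no more than 0.395 FPKM in delta samples. Of the related receptor Gfral and its ligand Gdf15, Gfral was at 0 in all alpha and delta samples and at 0.130 FPKM in 1 beta sample, and Gdf15 stayed at or below 0.984 FPKM in every sample.

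The genes whose levels were most like those of Gfra1 over the 15 samples, by the Pearson correlation of log2(FPKM + 1), were Tmem130 (r = 0.955), Gpx3 (r = 0.954), Fev (r = 0.952), Cldn6 (r = 0.945) and Tubb4a (r = 0.945). Fev, an ETS transcription factor of serotonergic neurons, was at 6.72 to 81.4 FPKM in alpha, 0 to 0.226 in beta and 17.5 to 41.1 in delta samples. Gpx3, a secreted glutathione peroxidase, was at 167 to 1379 FPKM in alpha, 3.72 to 18.7 in beta and 484 to 1004 in delta samples. Both were high in alpha and delta cells together. The genes most like Gfra3 were Ugt8a (r = 0.993), Galnt13 (r = 0.991), Mctp2 (r = 0.985), Pdk4 (r = 0.984) and Hhatl (r = 0.983). Pdk4, a kinase that inhibits the pyruvate dehydrogenase complex, was at 70.4 to 150.4 FPKM in alpha samples and at most 0.133 in beta and 0.895 in delta samples. Galnt13, which starts the attachment of O-linked sugars, was at 11.3 to 23.7 FPKM in alpha samples, 0 in beta samples and at most 0.256 in delta samples. The 15 points share 3 cell types, and no test was made of these likenesses.

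**Figure D3:**
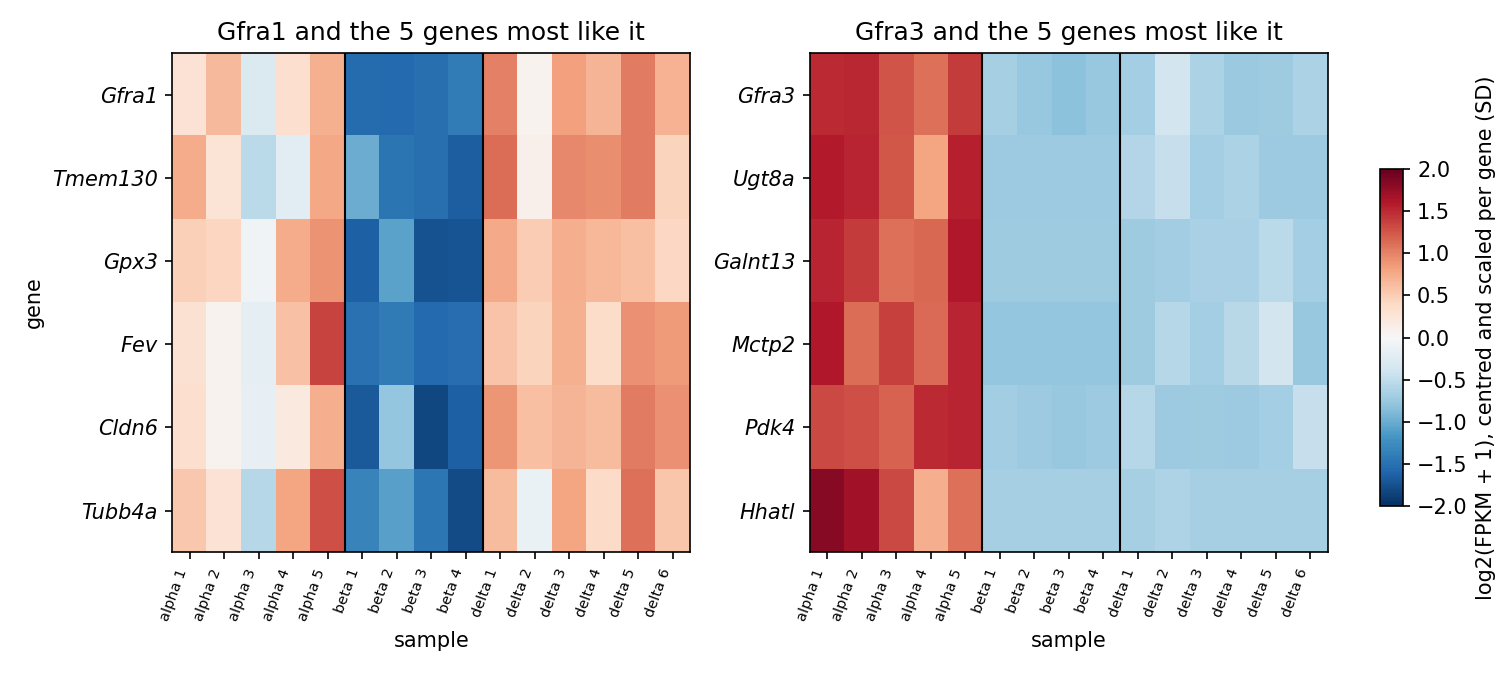
log2(FPKM + 1), centred and scaled for each gene (colour, in SD), of Gfra1 (left) and Gfra3 (right) and the 5 genes most like each (rows) in the 15 samples (columns), with black lines between cell types. The left block is low in beta samples and high in alpha and delta samples, and the right block is high in alpha samples only.

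Beyond the family itself, 56 other genes of the pathway were listed by role, of which 41 passed the filter on low values. In beta against alpha cells, 1 was higher and 7 were lower, beside 2.84% of all genes higher and 4.82% lower. The count of 8 fell to 4 without beta replicate 1, to 5 without beta replicate 3 and to 4 when only these cell types were fitted. Delta against alpha cells gave 4 higher and 2 lower, beside 5.33% and 1.48% of all genes, and 7 higher and 3 lower when only these cell types were fitted. In delta against beta cells, 15 were higher (36.6%) and 0 lower, beside 11.7% and 2.99% of all genes, and at an unadjusted limma p under 0.05 the numbers were 20 higher and 1 lower, beside 21.5% and 6.87% of all genes. Of the 41 genes, 3 (Shank3, Dok4 and Spry4, named for this reason alone) passed the filter only through their delta mean, which favours a higher level in delta cells. Without that filter, 17 of 55 listed genes were higher and 0 lower in delta against beta cells, beside 7.18% and 1.90% of 23792 genes. The median log2 difference of the 41 genes was -0.34, 0.47 and 0.89 in these comparisons, and that of all genes tested was -0.13, 0.13 and 0.30. The marker sums of PP, acinar, duct and endothelial cells given above were also higher in delta than in beta samples, those of acinar and duct cells with some overlap. Those of PP and mesenchymal cells were lower in beta than in alpha samples without overlap, and that of duct cells with some overlap. The mesenchymal sum was also lower in delta than in alpha samples without overlap. The part of these other cell types in the counts was not tested. The comparisons share their samples and are not independent of each other. Scaling changed these splits. Under quantile normalization 9 were higher and 2 lower in delta against beta cells, beside 9.70% and 9.36% of all genes, and under size factors 10 were higher and 1 lower, beside 9.57% and 9.00%. The share of higher calls among all calls over all genes moved too. In delta against beta cells it was 79.6% as deposited, 51.5% under size factors and 50.9% under quantile normalization, and in delta against alpha cells 78.3%, 67.9% and 56.8%. In beta against alpha cells it was 37.0%, 52.7% and 47.6%, so that size factors turned the split round, as did leaving out beta replicate 3 (695 higher and 459 lower).

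**Figure D4:**
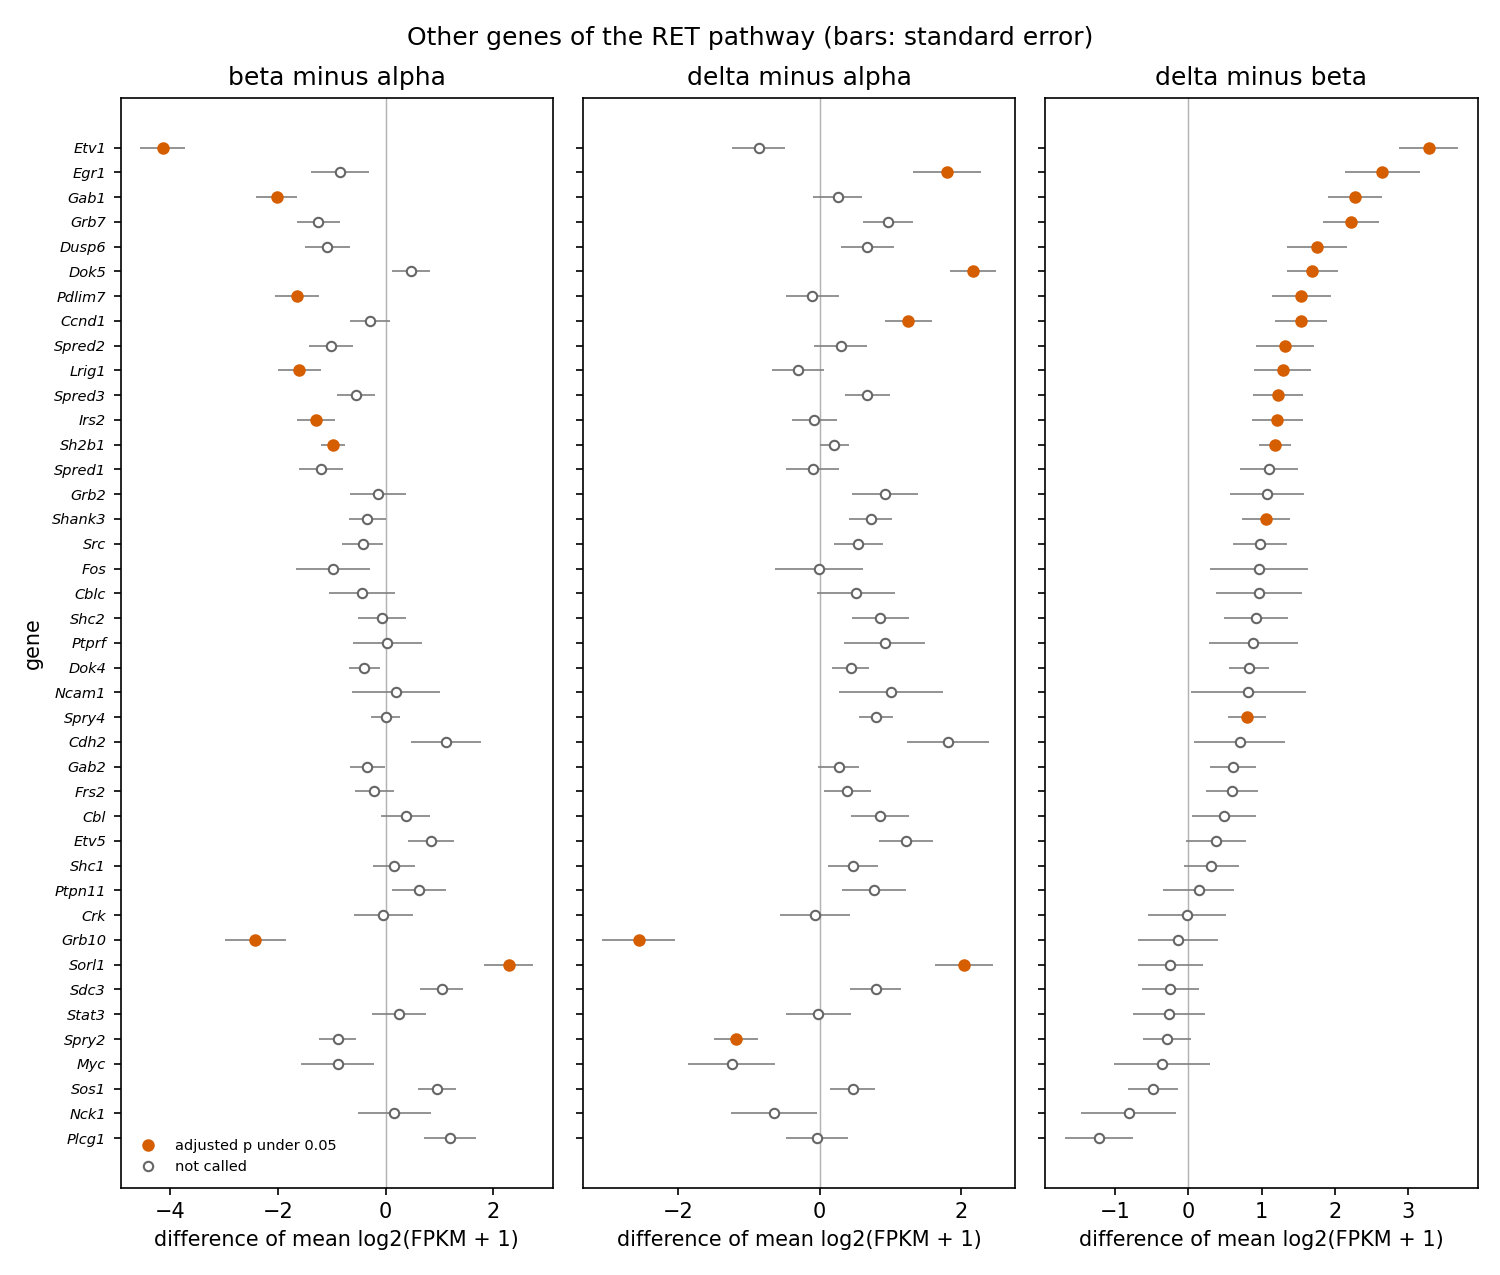
Difference in mean log2(FPKM + 1) (horizontal axis) of the 41 other pathway genes tested (rows) in the 3 comparisons (panels), with the standard error as bars and filled points where the limma adjusted p was under 0.05. In delta minus beta, 15 points are filled and all lie to the right of 0, and in beta minus alpha 7 of the 8 filled points lie to the left.

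By role, the binding partners and inhibitors of the receptors (9 tested) had 1 higher and 1 lower in beta against alpha cells, 1 higher in delta against alpha cells and 2 higher in delta against beta cells. The last count includes Shank3, which passed the filter only through its delta mean, and was 1 of 10 without the filter. Here and for the roles that follow, the shares of all genes called higher and lower were 2.84% and 4.82%, 5.33% and 1.48%, and 11.7% and 2.99% in the 3 comparisons. Sorl1, a sorting receptor that binds GDNF and its receptors, was the gene called higher against alpha cells in both comparisons with them. It was at 0 to 1.04 FPKM in alpha samples, of which alpha 5 alone was above 0.0567, at 3.09 to 6.76 in beta samples and at 0.513 to 8.32 in delta samples. Its difference in log2(FPKM + 1) was 2.29 for beta minus alpha (SE 0.456, limma adjusted p = 0.00540) and 2.04 for delta minus alpha (limma adjusted p = 0.00456). In the samples with the higher ribosomal protein sum the latter was 1.21. Beta samples stood apart from alpha samples, and the lowest delta sample lay below the highest alpha sample. Ncam1, the cell adhesion molecule that can act as a GDNF receptor without Ret, averaged 12.3 FPKM in alpha, 7.64 in beta and 16.3 in delta cells and was not called in any comparison.

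The adaptors that dock on activated Ret and carry its signal (20 tested) had 5 lower and 0 higher in beta against alpha cells, 1 in each direction in delta against alpha cells, and 6 of 20 higher (30.0%, beside 11.7% of all genes) with 0 lower in delta against beta cells. Without the filter the last count was 8 of 26, beside 7.18% of all genes, and Dok4 was in the 20 only through its delta mean. At an unadjusted limma p under 0.05, 2 were higher in the first comparison, beside 8.67% of all genes higher and 14.3% lower there, and 1 was lower in the last, beside 6.87%. Gab1, a scaffold for PI3 kinase and SHP2, was at 1.69 to 8.39 FPKM in alpha, 0.00304 to 1.14 in beta and 3.06 to 8.79 in delta samples. Its difference was -2.02 for beta minus alpha (limma adjusted p = 0.00381) and 2.28 for delta minus beta (limma adjusted p = 0.000600), so that it was low where Gfra1 was low. In the samples with the higher ribosomal protein sum these differences were -1.09 and 1.14. Grb10, an adaptor that binds Ret, had means of 42.6 FPKM in alpha, 7.55 in beta and 5.48 in delta cells, although alpha 3 was at 8.45 FPKM. It differed by -2.42 for beta minus alpha (limma adjusted p = 0.0168) and by -2.56 for delta minus alpha (limma adjusted p = 0.00460). The former call was lost when only alpha and beta samples were fitted (limma adjusted p = 0.114) and without beta replicate 1 (limma adjusted p = 0.0651). Over all alternatives its adjusted p ranged from 0.00142 to 0.114. Dok5, a docking protein of Ret, was at 0.209 to 0.899 FPKM in alpha samples and 4.69 to 6.51 in delta samples, a difference of 2.17 (limma adjusted p = 0.000333).

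Of the transcription factors and feedback inhibitors that respond to ERK (12 tested), 1 was lower in beta against alpha cells, delta against alpha cells gave 2 higher and 1 lower, and delta against beta cells gave 7 higher (58.3%, beside 11.7% of all genes). Without the filter the last count was 8 of 15, beside 7.18% of all genes, and Spry4 was in the 12 only through its delta mean. Etv1, an ETS factor, was at 90.1 to 166.1 FPKM in alpha, 1.68 to 9.83 in beta and 50.9 to 90.6 in delta samples. The beta samples were far below the others, with differences of -4.14 for beta minus alpha (SE 0.416, limma adjusted p = 8.0e-06) and 3.28 for delta minus beta (limma adjusted p = 4.1e-05). Egr1, an immediate early gene, had means of 11.5 FPKM in alpha, 4.96 in beta and 32.5 in delta cells. Its delta minus beta difference was 2.65 (limma adjusted p = 0.00237). Its delta minus alpha difference was 1.81 (limma adjusted p = 0.0303) and was no longer called without alpha replicate 1, 2 or 4 or delta replicate 1, 3, 4 or 5, with an adjusted p of up to 0.0893. Spry2, a feedback inhibitor of receptor tyrosine kinases, was at 4.41 FPKM in alpha, 1.71 in beta and 1.20 in delta cells on average. Its delta minus alpha difference was -1.18 (limma adjusted p = 0.0276), a call that was lost without alpha replicate 3, 4 or 5 or delta replicate 1 or 6, with an adjusted p of up to 0.0679.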

How the data were processed

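RNA from 15 sorted samples (5 alpha, 4 beta, 6 delta) was amplified with a NuGEN kit and sequenced as single reads of 50 bases. Alignment by the authors was to GRCm38 with TopHat (2.0.8 in the submitters' processing notes, where the methods name another release), and the deposited values are FPKM per gene made by Cufflinks 2.2.1. The annotation release is not given in the sources used here. The authors compared cell types with edgeR on raw counts, which were not used here.

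FPKM were tested with limma 3.58.1 in R 4.3.3 (trended eBayes) after conversion to log2(FPKM + 1), in a single fit to the 15 samples without covariates. The 14405 genes with a mean above 1 FPKM in at least 1 cell type entered, with Benjamini-Hochberg adjustment over all of them, and an adjusted p under 0.05 was a call. P-values are two-sided and measure the spread between pools of mice. Other steps used Python 3.11.15 with pandas 2.3.3 and numpy 2.4.6, and figures matplotlib 3.10.9. The limit of 50000 FPKM between the 2 sets of ribosomal protein sums was set with the values known. Read totals were estimated from a common step in the FPKM of 5024 genes with 1 transcript, at an assumed fragment length of 200 bases. Coordinates, exons and coding sequences are from GENCODE M21, which holds 36341 of the genes in the table.

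The family members, the pathway and marker lists and the alternatives were chosen with earlier results of these data known. Named pathway genes are, in each comparison, up to 3 called genes with the largest difference in each direction. The likeness lists are the 5 tested genes with the highest Pearson correlation. Ncam1, Pspn, Gfral and Gdf15 were named for their role, after their values were seen. Alternatives were a pseudocount of 0.1, a filter at 0.5 FPKM or none, median-ratio size factors, quantile normalization, fits of 2 cell types, the replicate number as a block, the ribosomal protein set as a covariate, the log2 ratio of mean FPKM, and leaving out each sample. Leaving out each sample in the fold ratios of Gfra1 and Gfra3 was added after seeing the data.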

Additional observations from a re-analysis of the deposited data

Results flagged for a closer look

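In 5 of 42 groups of 4 to 6 samples examined, 1 sample lay far from the others by Dixon's criterion. For normally distributed values chance gives about 1 in 20, or 2.1. Groups with values at 0 do not meet that condition, so nothing is concluded from the number flagged. Gfra3 was at 0.794 FPKM in delta 2, against 0.114 to 0.265 in the other delta samples. Artn was at 0.0269 FPKM in beta 4 and listed at 0 in the other beta samples, a case that the criterion flags whatever the value. Among pathway genes, Sorl1 was at 1.04 FPKM in alpha 5, against 0 to 0.0567 in the other alpha samples. Grb10 was at 8.45 FPKM in alpha 3, against 44.0 to 57.6 in the others. Spry2 was at 0.951 FPKM in beta 1, against 1.85 to 2.06 in the others.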

How the results depend on the processing

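Counts of calls over all genes were 1104, 981 and 2114 in beta against alpha, delta against alpha and delta against beta cells. The first became 2072 under size factors, 1970 under quantile normalization and 520 when only the 2 cell types were fitted, and it ranged from 698 (without beta replicate 4) to 1743 (without beta replicate 2) when single samples were left out. The other ranges were 849 to 1195 and 1499 to 2703. Size factors and quantile normalization moved the median of all genes by 0.13 and 0.11, -0.12 and -0.17, and -0.28 and -0.30 in the 3 comparisons. Of the pathway genes, 8, 6 and 15 were called. The first 2 counts became 4 and 10 when only the 2 cell types were fitted, and the counts without single samples were 4 to 10 (4 without beta replicate 1 and 5 without beta replicate 3), 4 to 9 and 10 to 18. The order of cell types in Gfra1 was the same under all alternatives run, and Gfra3 was highest in alpha cells in each. The family was chosen by low Gfra1 in beta cells and high Gfra3 in alpha cells, so this is a description only. Alpha and delta samples overlapped in Gfra1.

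Some small differences changed sign. For Gfra2 in beta minus alpha it was -0.025 with the ribosomal protein covariate. For Nrtn it was 0.014 under size factors and 0.042 with that covariate in beta minus alpha (-0.35 to 0.073 without single samples), 0.10 with the covariate in delta minus alpha (-0.17 to 0.13), and -0.13 under size factors and -0.39 under quantile normalization in delta minus beta (-0.11 to 0.31). For Ret in delta minus alpha it ranged from -0.26 to 0.032 when single samples were left out, the latter without alpha replicate 5. The causes were not tested.

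Alpha, beta and delta samples share replicate numbers. The deviations of 13 same-numbered pairs correlated at 0.0761 on average (-0.152 to 0.281, 5 of them over 0.1). Those of 61 pairs with different numbers correlated at -0.0161 on average (-0.352 to 0.339, 17 of them over 0.1). The ranges overlapped, and these values cannot decide whether the numbers pair the samples. The main fit did not take them to. Alpha and beta cells came from the same mouse line and may come from the same pools, which is not stated, and their 4 same-numbered pairs correlated at -0.0395, 0.271, -0.152 and 0.0731. With the replicate block, 1227, 831 and 2001 genes and 6, 4 and 10 pathway genes were called. Under the block the calls of Grb10 in beta minus alpha (limma adjusted p = 0.0546), and of Egr1 and Spry2 in delta minus alpha (0.0505 and 0.0510), were not made. Depth, estimated for 6 samples only, limits what values near 0 can show.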
